A study of Mus musculus with 6 samples.

Results

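The autophagy machinery genes are a fixed list of 42 mouse genes whose products build the autophagosome, load its cargo and deliver it to the lysosome. They were chosen by name, with earlier results of these data known. For each gene the brightest array feature paired with that symbol alone was used, which gave 41 measured genes of 22180 on the array. Optn, a cargo receptor, was not analysed here. The arrays were Affymetrix whole-transcript chips hybridised with biotin-labelled material prepared from RNA of J774A.1. This is an established macrophage-like line from a Balb/c mouse, cultured in RPMI-1640 containing serum (10% FCS). In one group of 3 biological replicates the cells received neuropeptide FF (NPFF, an amidated peptide of the RF-amide family) at 1 nM in phosphate-buffered saline for 18 h, and in the other the saline vehicle for 18 h. The titles call these control cells non-treated. The titles call the replicates biological, but the labels do not say that they came from separate cultures. The errors therefore measure the spread between these samples, which may be partly technical. The labels name no genetic change in the cells. Values are log2 intensities after quantile normalization, and every difference is NPFF minus control on the log2 scale.

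Autophagy wraps cytoplasm in a double membrane that then fuses with lysosomes. The ULK1 kinase complex starts the process, the class III phosphatidylinositol 3-kinase complex around BECN1 marks the growing membrane with the lipid PI3P, and ATG9 vesicles and ATG2 bring lipid to it. A ubiquitin-like pathway then attaches proteins of the ATG8 family (the LC3 and GABARAP proteins) to the membrane, where receptors such as SQSTM1, also called p62, bind them and tether cargo. Macrophages use the same proteins to clear microbes, damaged mitochondria and inflammasomes, and in LC3-associated phagocytosis. Transcript levels of these genes do not measure autophagic flux.

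NPFF exposure for 18 h was accompanied by no call in any autophagy gene. By limma with Benjamini-Hochberg adjustment over all 22180 genes, 0 of the 41 members had an adjusted p under 0.05, where 0% of all genes did, and the smallest adjusted p of a member was 1.00. At an unadjusted p under 0.05 there was 1 member, Atg4c, on the lower side, where 1.67% of all genes were lower at that level, and 0 on the higher side, where 0.834% were higher. The differences ran from -0.26 for Rb1cc1 to 0.29 for Atg101, with a median of 0.02 against 0.0037 over all genes. There were 24 members with a difference above 0, or 58.5%, against 51.7% of all genes. The 95% intervals of 34 members, 82.9%, lay within a 1.5-fold change in either direction, as did those of 88% of all genes. The intervals of Atg101, Rb1cc1, Atg2a, Wipi1, Atg4d, Sqstm1 and Tecpr1 reached beyond it, so a change of that size in these 7 genes was not resolved by 3 arrays per group. No member was among the 25% of genes with the lowest mean signal, and the members' median signal percentile was 74.3. The shares over all genes given here include dimmer genes and were not matched for signal. With the dimmest 25% removed, 54.4% of the remaining genes were higher in NPFF, with a median difference of 0.012.

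**Figure D1:**
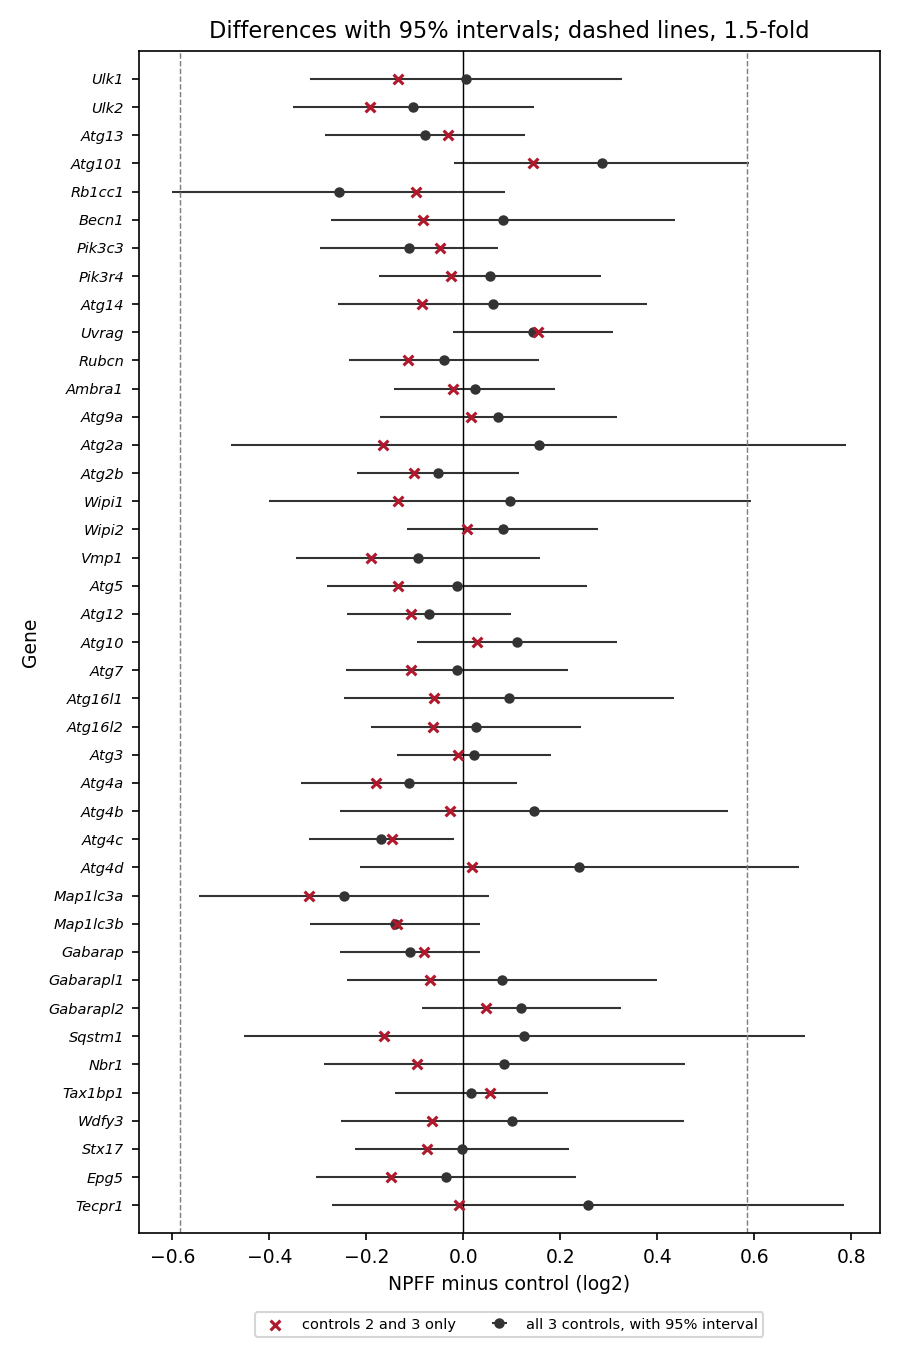
Difference between NPFF and control for the 41 measured autophagy genes (x axis, log2; y axis, genes in order of role). Points with bars are the difference over all 3 controls with its 95% interval from the moderated fit. Crosses are the difference from controls 2 and 3 only, and dashed lines mark 1.5-fold. Of the 41 intervals 34 lie between the dashed lines. Points lie above 0 in 24 genes and crosses in 8. Sqstm1 and Atg2a are among the genes whose cross lies on the other side of 0 from its point.

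The direction of the set depended on which control it was set against. The mean over the 41 members was 8.31, 8.61 and 8.57 in controls 1, 2 and 3 and 8.51, 8.55 and 8.50 in NPFF 1, 2 and 3. All 3 NPFF arrays therefore lay above control 1 and below controls 2 and 3, and the mean was 8.50 ± 0.16 (SD, n = 3) over the control arrays. Over the NPFF arrays it was 8.52 ± 0.03 (SD, n = 3). The NPFF mean of a member exceeded control 1 in 33 of 41 genes (80.5%, against 62.6% of all genes), with a median difference of 0.19 against 0.07 over all genes. It exceeded control 2 in 9 of 41 (22%, against 35.8% of all genes), with a median of -0.09 against -0.04. It exceeded control 3 in 13 of 41 (31.7%, against 48% of all genes), with a median of -0.06 against -0.0044. The same 3 NPFF arrays enter all of these values. In 26 of 41 members the NPFF mean was below both control 2 and control 3, against 40% of all genes.

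**Figure D2:**
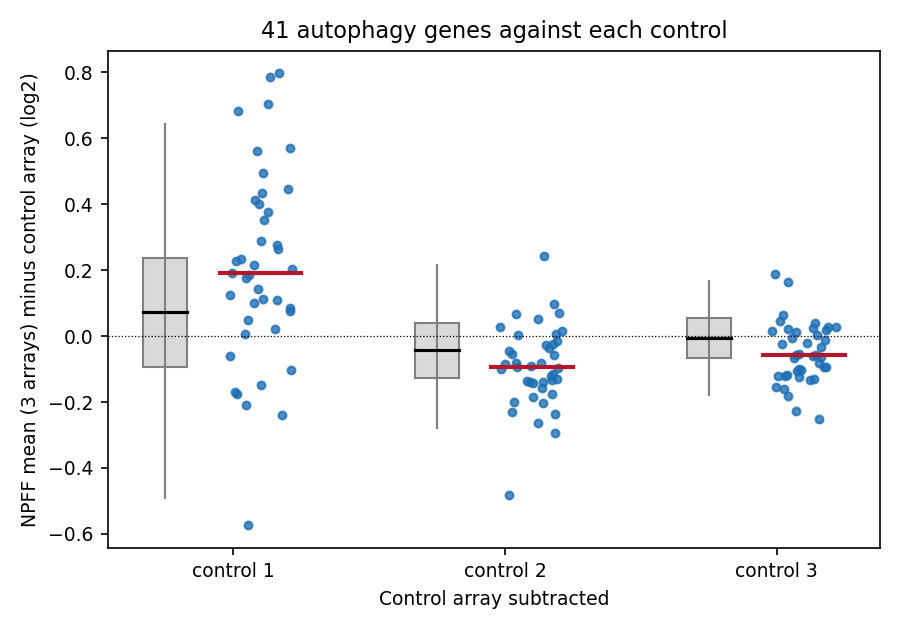
Mean of the 3 NPFF arrays minus 1 control array (y axis, log2), for each of the 3 controls (x axis). Blue points are the 41 autophagy genes with their median as a red bar; grey boxes give the middle 50% of all 22180 genes, their line the median and their whiskers the 5th to 95th percentiles. The members' median is 0.19 against control 1, -0.09 against control 2 and -0.06 against control 3.

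Control 1 was the lowest of the 6 arrays in 29 of the 41 members (70.7%, against 48.8% of all genes) and the highest in 6, namely Atg13, Rb1cc1, Pik3c3, Atg4c, Gabarap and Tax1bp1 (14.6%, against 24% of all genes). It lay more than 0.5 below the mean of the other 5 arrays in 7 members (17.1%, against 9.75% of all genes): Atg2a, Tecpr1, Sqstm1, Atg4d, Wipi1, Atg101 and Atg4b, with deviations of -0.86, -0.79, -0.77, -0.68, -0.61, -0.51 and -0.51. Rb1cc1 was the only member more than 0.5 above (2.44%, against 5.18% of all genes), at 0.53. Control 1 against the other 5 arrays carried 76.7% of the squared deviations of the members from their means, and 70.4% of those of all genes. This array also had the highest median and the narrowest interquartile range of all features as deposited, 6.38 and 2.04, against 6.24 to 6.29 and 2.31 to 2.41 in the other 5; their part in the members' levels was not tested. A member's SD was larger in control than in NPFF in 38 of 41 genes (92.7%, against 80.4% of all genes), with medians of 0.17 and 0.06. Without control 1, the median of the members was -0.08 against -0.02 over all genes, 33 of 41 were lower in NPFF (80.5%, against 60.9% of all genes), and 7 members (Ulk2, Atg101, Vmp1, Atg5, Atg4a, Atg4c and Map1lc3a), or 17.1%, had an unadjusted p under 0.05 by limma, against 10.8% of all genes. The smallest adjusted p of a member was then 0.41, for Map1lc3a. Without that array, 3 members had NPFF values all above and 16 all below the remaining controls (7.32% and 39%, against 8.97% and 18.3% of all genes). Leaving out control 2 instead gave 28 members higher and 13 lower, where 60% of all genes were higher. The median was then 0.07, against 0.03 over all genes. Without control 3, 27 were higher and 14 lower, where 52.4% of all genes were higher. Control 2 was the highest array in 16 of the 41 members and in 33.1% of all genes.

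**Figure D3:**
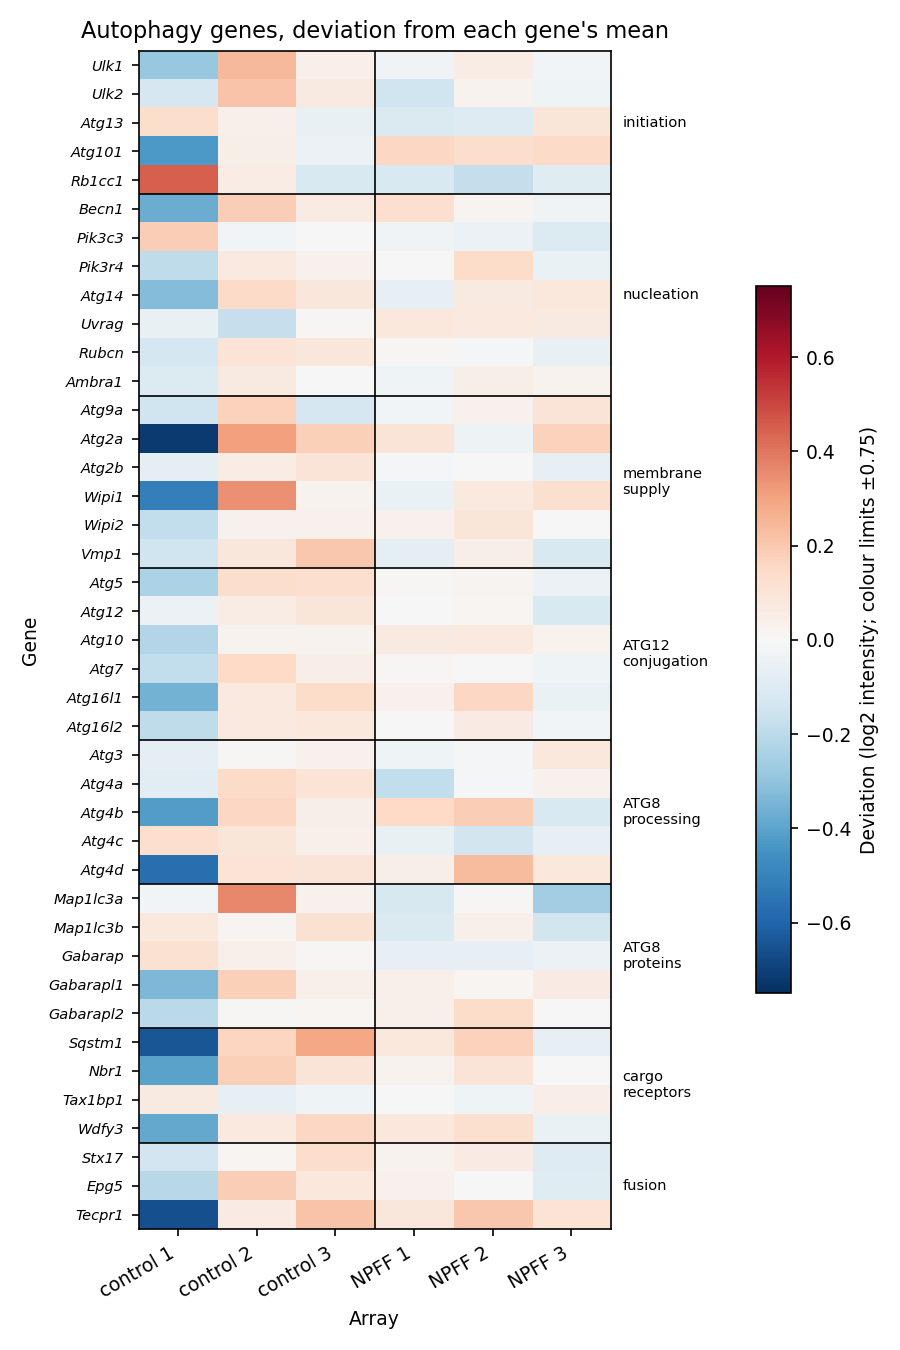
Deviation of each autophagy gene from its own mean over the 6 arrays (colour, log2, limits ±0.75), with arrays in columns and the 41 genes in rows grouped by role. Control 1 is mostly blue, being the lowest in 29 of 41 genes, while Rb1cc1 stands 0.53 above the other 5 arrays there; most cells of the NPFF columns are pale.

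With all 6 arrays, the groups did not overlap in 5 members. Atg101 and Uvrag lay higher in NPFF (4.88% of members, against 3.67% of all genes), and Pik3c3, Atg4c and Gabarap lower (7.32%, against 4.92% of all genes). Both shares were near those of the whole array. Which members these were depended on the normalization: Atg101 was without overlap in each of the 4 tried, Uvrag not after median centring or cyclic loess, Gabarap not after cyclic loess, Pik3c3 not after either of these, and Atg4c not with values as deposited or median centred. Promoter sequence was available from RefSeq (GRCm38.p6) for 34 of the 42 listed genes, in 41 windows, since several genes have more than 1 start site. Shown first are the 100 bases upstream of each start site of these members other than Pik3c3, written 5′ to 3′ on the gene's strand. Capitals mark 4 motifs searched on both strands: CACGTG (the E-box core), GGGCGG (the GC box), CCAAT and CCGGAAG (an ETS-type motif). A match on the opposite strand appears as the motif's reverse complement.
Atg4c, chr4:99193834-99193933, plus strand: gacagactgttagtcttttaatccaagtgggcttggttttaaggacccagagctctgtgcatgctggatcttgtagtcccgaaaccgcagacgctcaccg
Atg4c, chr4:99194047-99194146, plus strand: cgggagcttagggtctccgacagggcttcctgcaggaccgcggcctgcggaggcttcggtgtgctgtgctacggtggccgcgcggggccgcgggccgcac
Uvrag, chr7:99141145-99141244, minus strand: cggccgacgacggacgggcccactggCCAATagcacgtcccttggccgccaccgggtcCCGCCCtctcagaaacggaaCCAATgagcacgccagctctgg
Gabarap, chr11:69991270-69991369, plus strand: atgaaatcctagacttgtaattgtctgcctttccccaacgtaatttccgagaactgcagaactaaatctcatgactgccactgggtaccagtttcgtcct
Atg101, chr15:101284201-101284300, plus strand: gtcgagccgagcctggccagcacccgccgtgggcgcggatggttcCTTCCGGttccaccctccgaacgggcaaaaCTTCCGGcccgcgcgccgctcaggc

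Uvrag carried 1 GC box and a pair of CCAAT matches in the shown bases, and Atg101 held CCGGAAG at 2 positions. The windows of Atg4c, which has 2 start sites, and Gabarap held none of the 4 motifs in all 250 upstream bases searched. The E-box core is the part of the recognition sequence shared by TFEB, TFE3 and MITF, transcription factors known for driving autophagy and lysosome genes. It occurred in 4 of the 41 member windows (9.76%) and in 6.02% of all 32851 windows of that length. The 60 bases around it, with CACGTG in capitals, are given for the 4 genes that hold it.
Atg7, chr6:114670937-114670996, plus strand: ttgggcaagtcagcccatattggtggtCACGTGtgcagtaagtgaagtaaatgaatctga
Atg5, chr10:44268279-44268338, plus strand: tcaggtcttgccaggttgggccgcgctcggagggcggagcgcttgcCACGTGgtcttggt
Rubcn, chr16:32868422-32868481, minus strand: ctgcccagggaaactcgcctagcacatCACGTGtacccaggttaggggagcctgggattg
Atg3, chr16:45158708-45158767, plus strand: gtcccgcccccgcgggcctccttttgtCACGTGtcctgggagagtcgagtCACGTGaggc

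Atg3 carried the core at 2 places. The other motifs occurred in 21 member windows for GGGCGG (51.2%, against 32.7% of all windows), 11 for CCAAT (26.8%, against 33.8%) and 4 for CCGGAAG (9.76%, against 6.91%), and no 2 different motifs shared a base in a member window. A match describes the letters of the window and says nothing of binding. Over all 3 controls, the 4 genes with an E-box core had small differences: -0.01 (SE 0.10) for Atg7, -0.01 (SE 0.11) for Atg5, -0.04 (SE 0.08) for Rubcn and 0.02 (SE 0.07) for Atg3. Without control 1 these differences were -0.11, -0.13, -0.11 and -0.01 in the same order, where the median of all members was -0.08. None of these passed limma over all genes.

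Among the 5 genes of the initiating ULK1 complex, 2 were higher and 3 lower in NPFF, with a median of -0.08, and 0 passed. Ulk1, the kinase that starts autophagosome formation, measured 7.52, 8.05 and 7.84 in controls 1, 2 and 3 and 7.78, 7.86 and 7.78 in NPFF 1, 2 and 3. The NPFF arrays lay between control 1 and control 2, and the difference was 0.01 (SE 0.13). Its relative Ulk2 differed by -0.10 (SE 0.10). Atg101, which stabilises ATG13 in the complex, measured 7.16, 7.64 and 7.55 in the controls and 7.75, 7.72 and 7.74 under NPFF. Control 1 was far below the other 5 arrays, yet control 2, the nearest, also lay under every NPFF array. The difference of 0.29 (SE 0.13) was 0.57 against control 1, 0.10 against control 2 and 0.19 against control 3. Rb1cc1, which encodes the scaffold FIP200, measured 8.66, 8.26 and 8.09 in the controls and 8.10, 8.03 and 8.12 in NPFF. Here control 1 was the high array, and control 3 lay among the NPFF values. The difference of -0.26 (SE 0.14) was -0.57, -0.18 and -0.01 against controls 1, 2 and 3, and -0.10 without control 1. Atg13, the regulatory subunit, differed by -0.08 (SE 0.09). Without control 1, 1 was higher and 4 lower (median -0.10), with Ulk1 at -0.14, Ulk2 at -0.19, Atg101 at 0.14 and Atg13 at -0.03.

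The 7 genes of the PI3-kinase step divided 5 higher to 2 lower, with a median of 0.05, and 0 passed. Becn1, the scaffold of the complex, stood at 7.71, 8.26 and 8.14 in controls 1, 2 and 3 and 8.20, 8.10 and 8.05 in NPFF 1, 2 and 3. Control 1 was the lowest array and control 2 the highest, and the difference of 0.08 (SE 0.15) was -0.08 without control 1. Pik3c3, the lipid kinase VPS34 itself, stood at 9.13, 8.93 and 8.95 in the controls and 8.92, 8.91 and 8.85 in NPFF. All NPFF arrays were lower, but NPFF 1 and control 2 were almost level. Its difference of -0.11 (SE 0.08) was -0.24, -0.04 and -0.06 against controls 1, 2 and 3. Uvrag, a BECN1 partner in endosome and autophagosome maturation, stood at 9.55, 9.43 and 9.61 in the controls and 9.68, 9.67 and 9.67 in NPFF. The NPFF arrays were nearly identical and above all controls, of which control 2 was the lowest. Leaving out any 1 array gave 0.09 to 0.18, around the difference of 0.14 (SE 0.07). Atg14, the subunit that directs the complex to autophagosomes, differed by 0.06 (SE 0.13), the regulatory kinase subunit Pik3r4 by 0.05 (SE 0.10), the BECN1-binding Ambra1 by 0.02 (SE 0.07), and Rubcn, an inhibitor of maturation that is needed for LC3-associated phagocytosis, by -0.04 (SE 0.08). Without control 1, 1 was higher and 6 lower (median -0.05), and these 4 genes stood at -0.09, -0.03, -0.02 and -0.11.

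Of the 6 genes for membrane supply and PI3P effectors, 4 were higher and 2 lower, with a median of 0.08, and 0 passed. Control 1 was the lowest array in all 6. Atg9a, the lipid scramblase of the seed vesicles, gave 8.12, 8.44 and 8.14 in controls 1, 2 and 3 and 8.25, 8.30 and 8.37 in NPFF 1, 2 and 3. The NPFF arrays lay between control 3 and control 2, and the difference was 0.07 (SE 0.10). The lipid-transfer gene Atg2a had the largest control SD of the 41 members, with 6.98, 8.004 and 7.87 in the controls and 7.79, 7.66 and 7.87 in NPFF. Control 1 was far below the other 5 arrays, and the difference of 0.16 (SE 0.26) was -0.16 without control 1. Its paralog Atg2b differed by -0.05 (SE 0.07). The PI3P-binding Wipi1 and Wipi2 differed by 0.10 (SE 0.21) and 0.08 (SE 0.08), and Wipi1 by -0.13 without control 1. Vmp1, a scramblase of the endoplasmic reticulum, differed by -0.09 (SE 0.10) and by -0.19 without control 1. Of the 6 genes 2 were higher and 4 lower (median -0.12) without that array, with Atg9a at 0.02, Atg2b at -0.10 and Wipi2 at 0.01.

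The 6 genes of the ATG12 conjugation system divided evenly, 3 higher and 3 lower, with a median of 0.01, and 0 passed. This system joins ATG12 to ATG5 and, with ATG16L1, decides where ATG8 proteins are attached. Atg5 gave 7.76, 8.13 and 8.12 in controls 1, 2 and 3 and 8.002, 8.01 and 7.95 in NPFF 1, 2 and 3, and Atg7, the activating enzyme of both conjugation pathways, 9.15, 9.48 and 9.39 in the controls and 9.34, 9.33 and 9.30 in NPFF. In both genes every NPFF array lay above control 1 and below controls 2 and 3. Their differences of -0.01 (SE 0.11) and -0.01 (SE 0.10) were -0.13 and -0.11 without control 1. Atg16l1 gave 7.74, 8.17 and 8.24 in the controls and 8.13, 8.25 and 8.05 in NPFF, overlapping except for control 1, with a difference of 0.09 (SE 0.14). Atg10, the E2-like enzyme for ATG12, gave 9.47, 9.72 and 9.72 in the controls and 9.76, 9.76 and 9.72 in NPFF. Its difference of 0.11 (SE 0.09) was 0.03 without control 1. Atg12 differed by -0.07 (SE 0.07) and Atg16l2 by 0.03 (SE 0.09). Without control 1, 1 was higher and 5 lower (median -0.08), with Atg16l1 at -0.06, Atg12 at -0.11 and Atg16l2 at -0.06.

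The enzymes that process ATG8 proteins gave 3 higher and 2 lower genes, with a median of 0.02, and 0 passed the adjusted threshold. The ATG4 proteases trim ATG8 proteins before lipidation and release them afterwards. Atg4c stood at 8.24, 8.21 and 8.15 in controls 1, 2 and 3 and 8.06, 7.98 and 8.05 in NPFF 1, 2 and 3. All NPFF arrays were lower, and control 1 lay beside control 2. The difference was -0.17 (SE 0.06), an unadjusted p of 0.032 by limma and an adjusted p of 1.00. Leaving out any 1 array gave -0.19 to -0.14. The unadjusted p of Atg4c by limma was 0.11 with values as deposited, 0.23 after median centring and 0.064 after cyclic loess. Atg4d stood at 6.14, 6.80 and 6.80 in the controls and 6.74, 6.94 and 6.78 in NPFF. Control 1 was far below the other 5 arrays, and the difference of 0.24 (SE 0.19) was 0.02 without it. Atg4b differed by 0.15 (SE 0.17) and by -0.03 without control 1, and Atg4a by -0.11 (SE 0.09) and -0.18. Atg3, the E2-like enzyme of lipidation, differed by 0.02 (SE 0.07) and by -0.01 without control 1. Of the 5 genes 1 was higher and 4 lower (median -0.03) without that array.

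The ATG8 proteins themselves divided into 3 lower and 2 higher genes, with a median of -0.11, and 0 passed. Map1lc3a, which encodes LC3A, measured 7.05, 7.43 and 7.10 in controls 1, 2 and 3 and 6.95, 7.08 and 6.81 in NPFF 1, 2 and 3. NPFF 2 lay among the controls and control 2 stood high. The difference of -0.25 (SE 0.12) was -0.10, -0.48 and -0.15 against controls 1, 2 and 3. Map1lc3b, which encodes LC3B, the usual marker of autophagosomes, measured 9.97, 9.91 and 10.01 in the controls and 9.78, 9.93 and 9.75 in NPFF. NPFF 2 again lay within the control range, and the difference was -0.14 (SE 0.07). Gabarap measured 12.89, 12.82 and 12.79 in the controls and 12.72, 12.72 and 12.74 in NPFF. All NPFF arrays were below all controls, by a small amount, with a difference of -0.11 (SE 0.06). A second feature of Gabarap had a difference of -0.19, with values that overlapped between groups. Gabarapl2 measured 7.21, 7.43 and 7.43 in the controls and 7.45, 7.56 and 7.42 in NPFF, and its difference of 0.12 (SE 0.09) was 0.05 without control 1. Gabarapl1 differed by 0.08 (SE 0.13) and by -0.07 without control 1. Map1lc3a, Map1lc3b and Gabarap kept a difference below 0 against each of the 3 controls. Gabarapl2 kept one above 0, at 0.26, 0.05 and 0.04 against controls 1, 2 and 3. The same shares over all genes were not counted. Without control 1, 1 was higher and 4 lower (median -0.08).

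**Figure D4:**
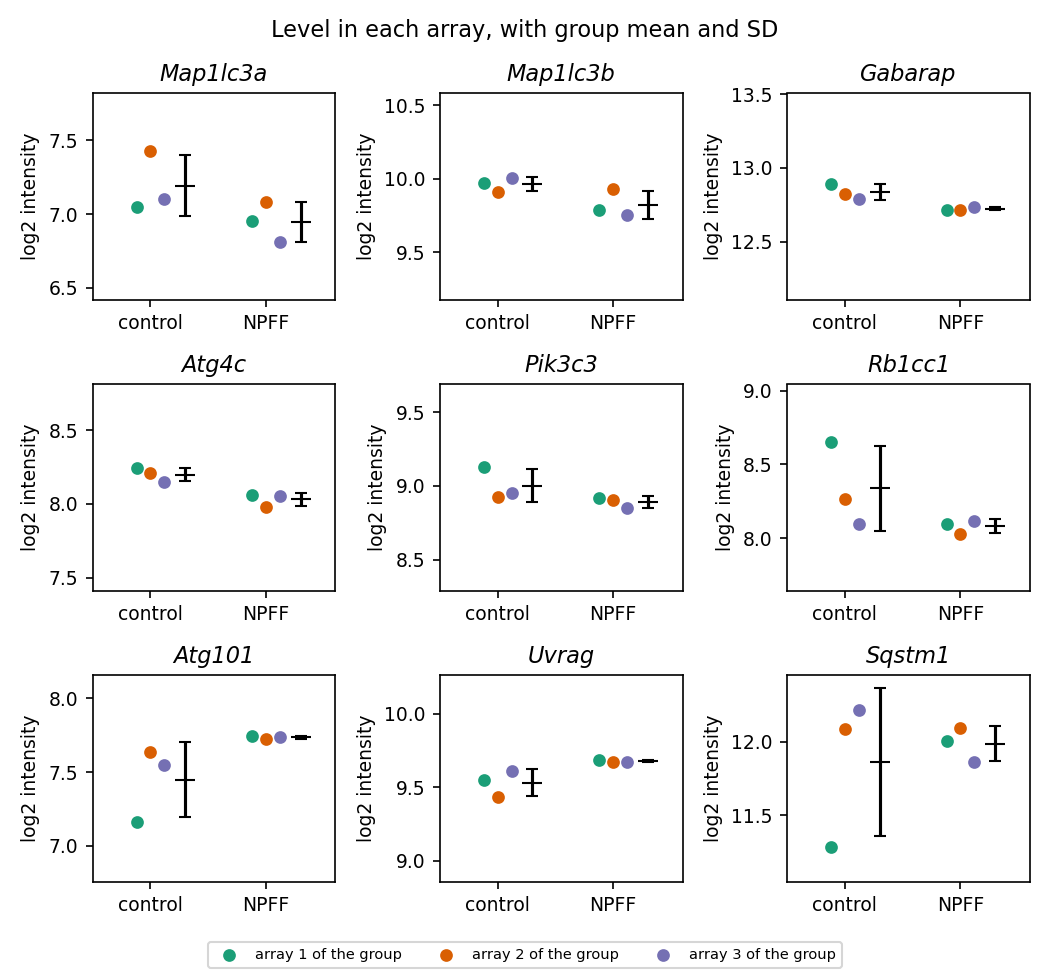
Quantile-normalized log2 intensity (y axis) of 9 autophagy genes in the 3 control and 3 NPFF arrays (x axis), each panel spanning 1.4 log2 units. Colours give the array's number within its group, which was not used as a pairing, and black bars the group mean with its SD (n = 3). NPFF arrays lie above all controls for Atg101 and Uvrag and below them for Gabarap, Atg4c and Pik3c3.

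Cargo receptors and adaptors were higher in NPFF in 4 of 4 measured genes, with a median of 0.09, and 0 passed. Sqstm1 gave 11.29, 12.09 and 12.21 in controls 1, 2 and 3 and 12.00, 12.10 and 11.86 in NPFF 1, 2 and 3. Control 1 was far below the other 5 arrays, and NPFF 1 and NPFF 3 lay below both remaining controls while NPFF 2 lay beside control 2. The difference of 0.13 (SE 0.24) was 0.70, -0.10 and -0.23 against controls 1, 2 and 3. Nbr1, a related receptor, differed by 0.08 (SE 0.15) and by -0.10 without control 1, and Wdfy3, the aggregate adaptor ALFY, by 0.10 (SE 0.15) and -0.06. Tax1bp1, a ubiquitin-binding receptor, differed by 0.02 (SE 0.07) and 0.05. Without control 1, 1 was higher and 3 lower (median -0.08). Of the 3 fusion genes, 1 was higher and 2 lower, and 0 passed. Stx17, the SNARE of the finished autophagosome, gave 8.02, 8.18 and 8.29 in the controls and 8.19, 8.23 and 8.07 in NPFF, which overlapped fully, with a difference of -0.0026 (SE 0.09). The tethering factors Epg5 and Tecpr1 differed by -0.04 (SE 0.11) and 0.26 (SE 0.22). Without control 1 the 3 fusion genes were all lower, Stx17 at -0.07, Epg5 at -0.15 and Tecpr1 at -0.01.

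Other genes of the pathway gave 0 adjusted calls by limma in each of 6 further lists, and at an unadjusted p under 0.05 there was 1 gene among the upstream kinases and sensors (Fnip1, lower), 1 among the lysosomal genes (Npc1, lower) and 0 in the other 4 lists. Over all genes, 2.51% had an unadjusted p under 0.05 by limma. These lists were chosen with results of these data known. Of all genes, 51.7% were higher in NPFF with all 3 controls, while 60.9% were lower without control 1. Of 21 upstream kinases and nutrient sensors, 14 were higher and 7 lower (median 0.05). Prkag1, a subunit of the energy sensor AMPK, had a difference of 0.28 (SE 0.13), Rheb, an activator of mTORC1, 0.16 (SE 0.11), the folliculin partner Fnip1 -0.14 (SE 0.06) and the mTOR inhibitor Deptor -0.17 (SE 0.10). Mtor itself gave 0.10 (SE 0.12). The balance turned without control 1, where 6 were higher and 15 lower (median -0.03), with Prkag1 at 0.18, Rheb at 0.05 and Mtor at -0.03. Of 8 transcription factors, 4 were higher and 4 lower (median -0.02). The lysosome and autophagy regulators Tfeb, Tfe3 and Mitf had differences of 0.06 (SE 0.11), 0.03 (SE 0.09) and -0.05 (SE 0.08), the forkhead factors Foxo3 and Foxo1 0.10 (SE 0.11) and -0.10 (SE 0.08), and the stress factor Atf4 -0.10 (SE 0.06). Without control 1, 1 was higher and 7 lower (median -0.03), with Tfeb at -0.02, Tfe3 at -0.04, Mitf at -0.03, Foxo3 at -0.02 and Foxo1 at -0.04. Among 8 mitophagy and other selective receptors, 5 were higher and 3 lower (median 0.02). The endoplasmic reticulum receptor Retreg1 had a difference of -0.19 (SE 0.09) and the mitochondrial Phb2 0.20 (SE 0.17). Without control 1 these were -0.10 and 0.0032, and of the list 3 were higher and 5 lower (median -0.03).

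Tethering and fusion partners were higher in 11 of 13 genes (median 0.06). The HOPS tethering subunits Vps33a and Vps16 had differences of 0.31 (SE 0.24) and 0.20 (SE 0.18), and Snap29, the SNARE partner of STX17, -0.18 (SE 0.09). Without control 1 the values for the HOPS pair were 0.01 and -0.0047, and the list turned: 5 were higher and 8 lower (median -0.07). Of 18 lysosomal genes, 12 were higher and 6 lower (median 0.01). That balance also reversed without control 1, where 3 were higher and 15 lower (median -0.07). Over all genes, 60.9% were then lower. The cholesterol exporter Npc1 stood at 10.12, 10.33 and 10.17 in controls 1, 2 and 3 and 9.95, 9.97 and 10.05 under NPFF, all of which were lower, with a difference of -0.21 (SE 0.08). The sialidase Neu1 stood at 8.42, 9.01 and 9.11 in the controls and 9.18, 9.21 and 9.12 in NPFF, all NPFF arrays higher, with a difference of 0.33 (SE 0.18) and 0.11 without control 1. Other PI3P and lipid regulators divided 7 to 5 (median 0.01), with Tmem41b, a scramblase that works with VMP1, at 0.21 (SE 0.14) and the PI3P kinase Pikfyve at -0.16 (SE 0.08). Without control 1 these were 0.05 and -0.08, and of the list 3 were higher and 9 lower (median -0.04). The means of all 6 lists were lowest in control 1, from -0.06 for the transcription factors to -0.37 for the tethering genes, measured from each list's mean over the 6 arrays. The autophagy machinery lay at -0.20 and all genes at -0.06 on the same measure.

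**Figure D5:**
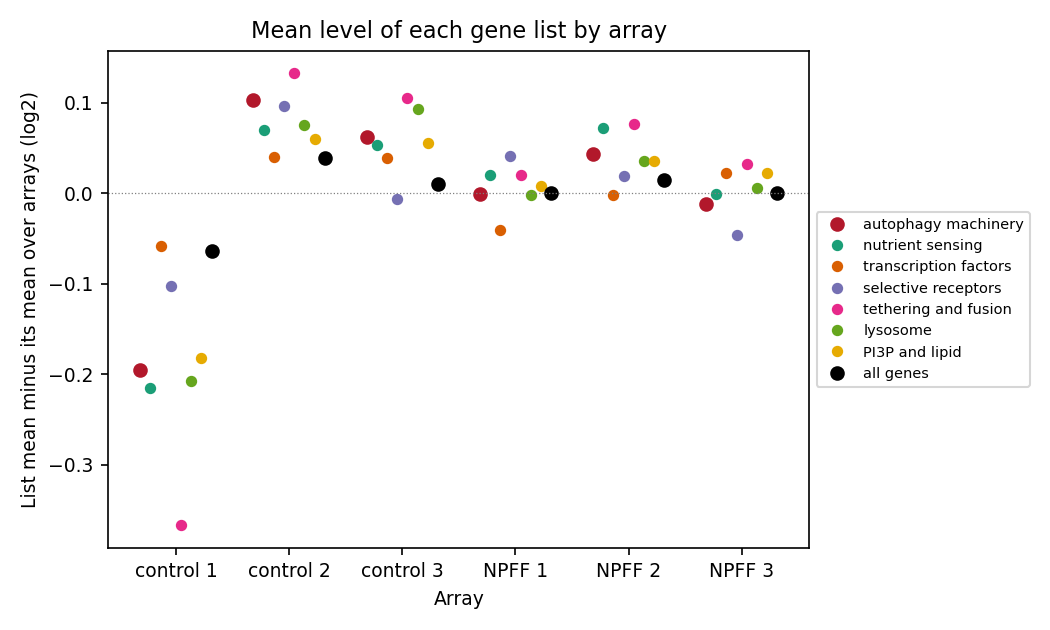
Mean level of a gene list in each array minus its mean over the 6 arrays (y axis, log2), by array (x axis). Large red points are the 41 autophagy genes, large black points all 22180 genes and small points 6 further pathway lists; every list is lowest in control 1, from -0.06 for the transcription factors to -0.37 for tethering and fusion.

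The cells' macrophage label was set against marker lists. The 10 macrophage genes had a median signal percentile of 96.6 among all genes, from 58.8 for Mertk to 99.9 for Lyz2. Lyz2 stood at 13.17, 13.23 and 13.35 in controls 1, 2 and 3 and 13.24, 13.34 and 13.35 in NPFF. The brightest gene of the other marker lists, the epithelial Krt8, was at percentile 62.7, above Mertk. Marker lists of fibroblasts, epithelial and endothelial cells, lymphocytes and neutrophils had median percentiles from 19.5 to 40.6, with list medians of the difference from -0.05 to 0.08. The macrophage list's own mean was also lowest in control 1, at -0.22 from its mean over arrays.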

How the data were processed

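The submitters' table, which the authors deposited, holds log2 intensities per feature, as read from its range, the lowest value being 4.59. Per the labels' protocols, 500 ng of TRIZOL-extracted RNA went into labelling with the Affymetrix terminal labelling kit. Background correction, normalization and genome build were not given in the sources used here. Of 33794 features, 23521 had exactly 1 symbol in the platform annotation, 1814 several and 8459 none. Sorted arrays departed from their mean by up to 0.17, so quantile normalization over all features was applied, and the feature with the highest mean was kept per gene, giving 22180 genes. The groups were tested with limma 3.58.1 under R 4.3.3 (lmFit and eBayes, group alone, two-sided, Benjamini-Hochberg over all genes, threshold 0.05, 4 residual and 2.49 prior degrees of freedom). Standard errors and 95% intervals are those of the moderated fit and are not adjusted for the number of genes. Arrays carry no counting depth; their number limits the precision.

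The members, lists and tests were chosen with earlier results of these data known. Values in every array are given for 13 genes central to each step, for members without overlap and for the 5 members of smallest p in each direction. Of each pathway list, up to 2 genes of smallest p in each direction could be named. Mtor, Tfeb, Tfe3, Mitf and Lyz2 were added for their roles, and Mertk and Krt8 for their signal. Some genes of the pathway and marker lists are not reported here. The fit was tested on simulated data with independent noise for each gene and no shift of a whole array. Of genes changed by 0.5 log2, it recovered 35.8% with equal spread and 49.3% with the spread of the 6 arrays. Alternatives covered the normalization, the feature per gene, dim genes, array weights, a replicate block and arrays left out.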

Additional observations from a re-analysis of the deposited data

How the results depend on the processing

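The count of members past an adjusted p of 0.05 by limma was 0 in each of 14 other settings, with 1 member at an unadjusted p under 0.05 in the reported fit. That unadjusted count, with the share of all genes at that level (2.51% in the reported fit), was 0 with values as deposited (2.25%), 2 after cyclic loess (3.45%), 6 with gene-by-gene array weights (8.4%), 2 against control 3 alone (5.09%), and 0 to 7 with single arrays left out (1.06% to 10.8%), the 7 without control 1. With arrays centred on their medians the count was 1, but as Rb1cc1 in place of Atg4c (1.67%). Without control 2 the single member was Atg101, and without NPFF 2 it was Map1lc3b. The replicate block also left the count at 1, but as Map1lc3a in place of Atg4c, with 396 genes in all at that level against 556. The labels do not say whether the shared replicate numbers pair the arrays. Same-numbered deviations from the group means correlated across genes at 0.23, 0.45 and -0.33. These values cannot decide it, since deviations within a group of 3 sum to 0 and so depend on each other. Members higher without overlap numbered 1 with arrays centred on their medians (1.65% of all genes), 3 after cyclic loess (Atg101, Atg10 and Gabarapl2; 5.31%), 4 against control 3 alone (22.8%) and 2 to 4 with single arrays left out (5.52% to 11.8%). Members lower without overlap numbered 2 with arrays centred (Rb1cc1 and Gabarap; 4.63% of all genes), 2 with the mean over features (Pik3c3 and Atg4c; 4.93%), 3 with values as deposited (Rb1cc1, Pik3c3 and Gabarap; 4.86%), 5 after cyclic loess (Ulk2, Atg2b, Atg4a, Atg4c and Map1lc3a; 5.01%), 21 against control 3 alone (26.8%) and 3 to 16 with single arrays left out (7.16% to 18.3%), the 16 without control 1. The median of the members ranged from -0.080 without control 1 to 0.068 without control 2, and the difference of their mean level from -0.072 to 0.077 without the same arrays. Of 574 member differences under other settings, 67 turned their sign, and 18 of 41 members kept theirs throughout: Ulk2, Atg101, Rb1cc1, Pik3c3, Uvrag, Atg9a, Atg2b, Wipi2, Vmp1, Atg12, Atg10, Atg4a, Atg4c, Atg4d, Map1lc3a, Map1lc3b, Gabarap and Gabarapl2. Turned differences were Atg5 0.0077 and Stx17 0.027 with values as deposited, Atg5 0.010 and Stx17 0.030 with arrays centred on their medians, and Ulk1 -0.017, Ambra1 -0.021, Atg3 -0.026 and Tax1bp1 -0.037 after cyclic loess. With array weights, where control 1 had a weight of 0.121 and control 3 one of 2.37, they were Ulk1 -0.073, Becn1 -0.027, Pik3r4 -0.0096, Atg14 -0.066, Ambra1 -0.0040, Atg2a -0.098, Wipi1 -0.044, Atg16l1 -0.059, Atg16l2 -0.055, Atg3 -0.018, Gabarapl1 -0.019, Sqstm1 -0.16, Nbr1 -0.057, Wdfy3 -0.060 and Tecpr1 -0.019. Against control 3 alone they were Ulk1 -0.032, Atg13 0.017, Becn1 -0.023, Pik3r4 -0.0055, Atg14 -0.057, Atg2a -0.099, Atg16l1 -0.093, Atg16l2 -0.066, Atg3 -0.022, Sqstm1 -0.23, Nbr1 -0.054, Wdfy3 -0.10 and Tecpr1 -0.083. With single arrays left out, differences ranged from -0.14 to 0.13 for Ulk1, -0.083 to 0.20 for Becn1, -0.026 to 0.11 for Pik3r4, -0.086 to 0.15 for Atg14, -0.021 to 0.063 for Ambra1, -0.16 to 0.35 for Atg2a, -0.13 to 0.29 for Wipi1, -0.060 to 0.19 for Atg16l1, -0.062 to 0.072 for Atg16l2, -0.012 to 0.044 for Atg3, -0.028 to 0.26 for Atg4b, -0.068 to 0.19 for Gabarapl1, -0.16 to 0.30 for Sqstm1, -0.096 to 0.20 for Nbr1, -0.064 to 0.20 for Wdfy3, -0.0081 to 0.43 for Tecpr1, -0.11 to 0.0011 for Rubcn, -0.13 to 0.052 for Atg5, -0.11 to 0.058 for Atg7, -0.011 to 0.055 for Tax1bp1, -0.075 to 0.063 for Stx17 and -0.15 to 0.049 for Epg5. The cause of these turns was not tested. Where 1 control was left, it was assumed to vary like the NPFF arrays. No member was among the dim genes removed.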
